A study of Rattus norvegicus with 24 samples.

Results

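The genes described here are 10 markers of epithelium, measured in a muscle dissection from the rat orbit and in a hindlimb muscle at 3 ages. They are the basal keratins Krt5 and Krt14, the simple-epithelium keratins Krt8, Krt18 and Krt19, the claudins Cldn3 and Cldn7, the adhesion molecule Epcam, the membrane mucin Muc1 and the water channel Aqp5. They were chosen by name, and every probe set that the platform annotation gives to 1 of these symbols alone was kept. This yielded 15 probe sets for the 10 genes, out of 8740 probe sets without controls and 4736 named genes. Krt18, Krt19, Cldn3, Cldn7 and Aqp5 had 2 probe sets each and the other genes had 1.

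The groups were extraocular muscles (EOM, the small muscles that move the eye) at 6, 18 and 30 months and extensor digitorum longus (EDL, a fast hindlimb muscle that extends the toes) at 6, 18 and 30 months. Each group had 4 Affymetrix Rat Genome U34 arrays, 24 in all, and per the study's design text each array carried RNA pooled from 4 animals. Strain and sex are not given in the sources used here, nor is it said whether the same rats supplied both muscles. The labels state no treatment or genetic change for any group, and each value averages over all cells that the tissue held.

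Keratins form intermediate filaments in epithelial cells, always by pairing a type I with a type II member. Krt5 pairs with Krt14 in the basal layer of stratified epithelia and in myoepithelium, while Krt8 pairs with Krt18 in simple epithelia such as ducts and glands, often together with Krt19. Claudins seal the tight junctions between such cells, and Aqp5 carries water across the apical membrane of salivary, lacrimal and airway glands. Muscle fibres build their filaments mainly from desmin, although keratins 8 and 19 have been described at the fibre membrane in the mouse. The orbit holds the lacrimal and Harderian glands close to the EOM.

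Promoters are shown for the 4 genes on which the patterns below turn: Krt8 and Krt18, which were the 2 members called higher in EDL at 30 months, and Epcam and Cldn7, whose values followed each other most closely over the EOM arrays. Each line is 100 bases 5′ to 3′ on the gene's own strand, from RefSeq on GRCr8, at chr7:135010419-135010518 (minus strand) for Krt8, chr7:135036051-135036150 (plus strand) for Krt18, chr10:55188570-55188669 (plus strand) for Cldn7 and chr6:12649679-12649778 (minus strand) for Epcam. All 4 windows lie upstream of the annotated gene start but not at the same place. Counted from the start, they span bases -179 to -80 for Krt8, -117 to -18 for Krt18 and -100 to -1 for Cldn7 and Epcam. The windows of Krt8 and Krt18 were set to end 20 bases after TATAA, which begins at -104 in Krt8 and at -42 in Krt18. Capitals mark TATAA on the shown strand and GGGCGG on either strand, so that its complement reads CCGCCC.
Krt8: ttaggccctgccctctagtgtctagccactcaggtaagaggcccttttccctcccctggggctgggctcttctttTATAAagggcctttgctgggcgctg
Krt18: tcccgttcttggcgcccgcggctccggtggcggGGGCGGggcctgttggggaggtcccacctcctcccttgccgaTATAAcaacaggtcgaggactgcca
Cldn7: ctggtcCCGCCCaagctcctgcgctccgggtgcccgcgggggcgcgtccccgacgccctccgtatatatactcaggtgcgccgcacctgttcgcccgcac
Epcam: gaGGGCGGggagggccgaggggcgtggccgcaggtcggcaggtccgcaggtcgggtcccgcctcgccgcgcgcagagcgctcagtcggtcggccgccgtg
Of the 10 genes, 8 had a promoter entry, the others being Krt14 and Krt19. In the 250 bases upstream of the start, searched on both strands, TATAA occurred in 3 of the 8 (Krt8, Krt18 and Muc1), against 24.0% of 33469 rat promoters. GGGCGG occurred in 7 of the 8, all but Krt8, against 30.5% of those promoters. Krt8 and Krt18 lie next to each other on chromosome 7 with 1 annotated locus between them. A match describes the letters of the window only.

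The deposited signals had already been scaled, with a trimmed mean close to 501 units on all 24 arrays. A value below its array's 25th percentile (21.4 to 34.5 units) was set to that floor, and testing required a signal above the 40th percentile of the array (53.8 to 83.8 units) in 3 or more of a group's 4 arrays, for any group. Of the 8740 probe sets 5741 were tested, among them 13 of the 15 studied here, which covered all 10 genes. The probe sets X81448cds_at of Krt18 and X81449cds_at of Krt19 were not tested. Since a probe set could pass through the EOM arrays alone, the counts and medians over those 13 describe them and were not used as support. The Krt18 probe set rc_AI072634_at passed through EDL at 30 months alone. Its calls in comparisons with that group likewise describe it and were not used as support. The muscles carried their defining markers. Myh13 and Myh8, the extraocular and neonatal myosin heavy chains, were higher in EOM than in EDL by 7.40 and 7.25 on the log2 scale, and 10 of 12 muscle fibre genes were lower, where 20% of all tested probe sets were. EDL at 30 months replicate 1 stood apart, with a median Spearman correlation to its own group of 0.873 against 0.915 to 0.962 for the other 23 arrays. EDL at 6 months replicates 1 and 2 had the highest 3′ to 5′ signal ratios of beta-actin, 2.54 and 3.54.

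Most of these epithelial genes gave a higher signal in EOM than in EDL. As the mean over the 3 ages, 11 of the 13 tested probe sets, of 8 genes, were called higher in EOM and 0 lower, where the share of all 5741 tested probe sets was 22.3% higher and 20% lower. The largest differences belonged to Krt19, Epcam, Cldn3 and Aqp5, and the genes not called were Krt18 and Muc1. The median log2 difference was 1.19 over the 13 probe sets and -0.06 over all tested. Calls are at an adjusted p under 0.05 from limma, and in whole tissue a difference in the number of epithelial cells cannot be told apart from a difference in RNA per cell. The plot of signals by group shows each probe set on each array.

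**Figure D1:**
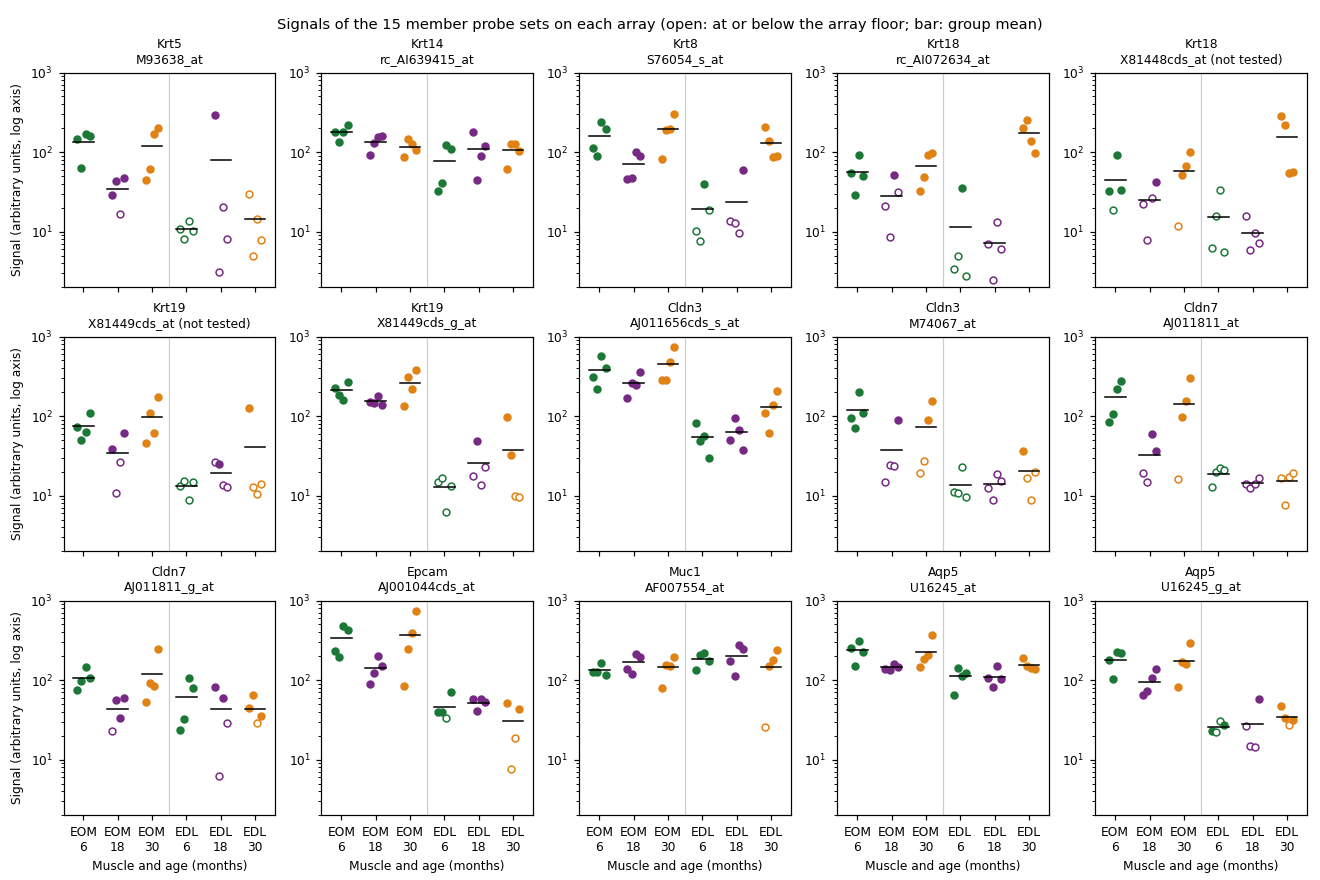
Signal (arbitrary units, log axis) of the 15 probe sets on each of the 24 arrays, by muscle and age in months, with EOM on the left of each panel and EDL on the right. Open points lie at or below the array's floor and bars are group means. For Epcam, Krt19 (X81449cds_g_at) and Aqp5 (U16245_g_at) all 12 EOM arrays lie above all 12 EDL arrays, and in EDL at 30 months Krt8 and Krt18 lie above the younger EDL arrays.

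Epcam, a cell adhesion glycoprotein of most simple epithelia, separated the muscles completely. Its signal in EOM was 232.9, 194, 484.1 and 428 units at 6 months, 88.3, 123.6, 198.1 and 151.8 at 18 months and 83.5, 244.8, 391.9 and 744 at 30 months. In EDL it was 39.2, 39.6, 33.7 and 71.1 units at 6 months, 57.5, 40.3, 57.5 and 52.4 at 18 months and 51.2, 7.7, 18.5 and 43.8 at 30 months. The highest EDL array, at 71.1, lay below the lowest EOM array, at 83.5. The mean difference was 2.38 ± 0.27 on the log2 scale (SE, n = 12 arrays each), a 5.22-fold higher signal in EOM (limma adjusted p = 1.12e-07).

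Of the simple-epithelium keratins, Krt19 differed most. Its tested probe set (X81449cds_g_at) read 135.2 to 380.2 units over the 12 EOM arrays with a median of 181.1, against 6.3 to 98.6 with a median of 15.7 over the 12 EDL arrays. The groups did not overlap, and 9 of the 12 EDL arrays lay at the floor. The difference was 2.55 ± 0.21 (log2, SE, n = 12 each), or 5.84-fold, with a limma adjusted p of 5.73e-10. The untested Krt19 probe set had lower readings, 10.8 to 175.2 units in EOM and 8.8 to 127.8 in EDL, and overlapped between the muscles. With no filter its difference was smaller, at 0.94 ± 0.25 (log2, SE, n = 12 each, limma adjusted p = 0.00521). By age it was 1.42, 0.33 and 1.06 at 6, 18 and 30 months (limma adjusted p = 0.0324, 0.804 and 0.126).

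Krt8, the type II keratin of simple epithelia, was also higher in EOM, by 1.29 ± 0.25 on the log2 scale (SE, n = 12 each, 2.45-fold, limma adjusted p = 0.000161). Krt18, its type I partner, was not called at -0.10 ± 0.24 (limma adjusted p = 0.759). The tested Krt18 probe set had a median of 49.5 units in EOM and 10.2 in EDL, but the 4 EDL arrays at 30 months exceeded all 12 EOM arrays. Both genes are taken up again with the ages below.

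The basal keratins were both higher in EOM as the mean over ages. Krt5 read 16.6 to 200 units in EOM with a median of 62.25, against 3.1 to 290.8 in EDL with a median of 10.6, and 11 of the 12 EDL arrays lay at the floor. The exception, EDL at 18 months replicate 1, held the highest value of all 24 arrays. With it the difference was 1.19 ± 0.34 (log2, SE, n = 12 each, limma adjusted p = 0.00646), and without it 1.47 (adjusted p = 4.49e-05). That array also had the highest Krt14 of the EDL arrays, 181.1 units. Its Krt8 was 13.7 units, and its Epcam was 57.5, in an EDL range of 7.7 to 71.1. Krt14, the partner of Krt5, overlapped widely, from 86.4 to 217.5 units in EOM and from 32.1 to 181.1 in EDL. Its difference of 0.69 ± 0.24 (log2, SE, n = 12 each, limma adjusted p = 0.0253) lost its call without EDL at 6 months replicate 1 or EDL at 18 months replicate 2, with an adjusted p of up to 0.145 over the alternatives.

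Both claudins were higher in EOM. Cldn3, by the probe set AJ011656cds_s_at, read 169.8 to 743.8 units with a median of 298.25 in EOM and 30 to 206.8 with a median of 64.25 in EDL. The difference was 2.23 ± 0.24 (log2, SE, n = 12 each), or 4.69-fold (limma adjusted p = 3.6e-08). Its second probe set, M74067_at, gave 1.10 ± 0.29, with 11 of 12 EDL arrays and 5 of 12 EOM arrays at the floor.

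Cldn7 was read by 2 probe sets of the same transcript. AJ011811_at lay at the floor on all 12 EDL arrays, between 7.7 and 22.2 units, and ranged from 14.8 to 299.8 units over the EOM arrays. Its signal was therefore at least 2.88-fold higher in EOM (limma adjusted p = 0.000237). The companion AJ011811_g_at overlapped between the muscles, from 23.2 to 247.7 units in EOM and 6.3 to 107.1 in EDL. Its 0.75 ± 0.30 (log2, SE, n = 12 each, limma adjusted p = 0.0461) lost its call in 18 of 33 alternatives, most of them leaving out 1 array, with adjusted p-values between 0.0198 and 0.214.

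Aqp5 was higher in EOM by both probe sets, though by different amounts. By U16245_g_at the EOM arrays read 64.3 to 294.8 units (median 146.6) and the EDL arrays 14.5 to 57 (median 27.1), with no overlap. The difference was 2.09 ± 0.22 (log2, SE, n = 12 each), or 4.26-fold (limma adjusted p = 3.23e-08). By U16245_at it was 0.66 ± 0.17 (limma adjusted p = 0.00303), with 134.5 to 368.6 units in EOM and 65.7 to 191.5 in EDL. Muc1, which coats apical surfaces, showed no called difference, at -0.16 ± 0.25 (log2, SE, n = 12 each, adjusted p = 0.639), with 80 to 215.5 units in EOM and 26 to 273.3 in EDL. Its 95% interval is drawn beside the others in the plot of differences. All 12 EOM arrays exceeded all 12 EDL arrays for 3 of the 15 probe sets, the Epcam, Krt19 (X81449cds_g_at) and Aqp5 (U16245_g_at) sets, where 4.95% of all tested probe sets did so.

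**Figure D2:**
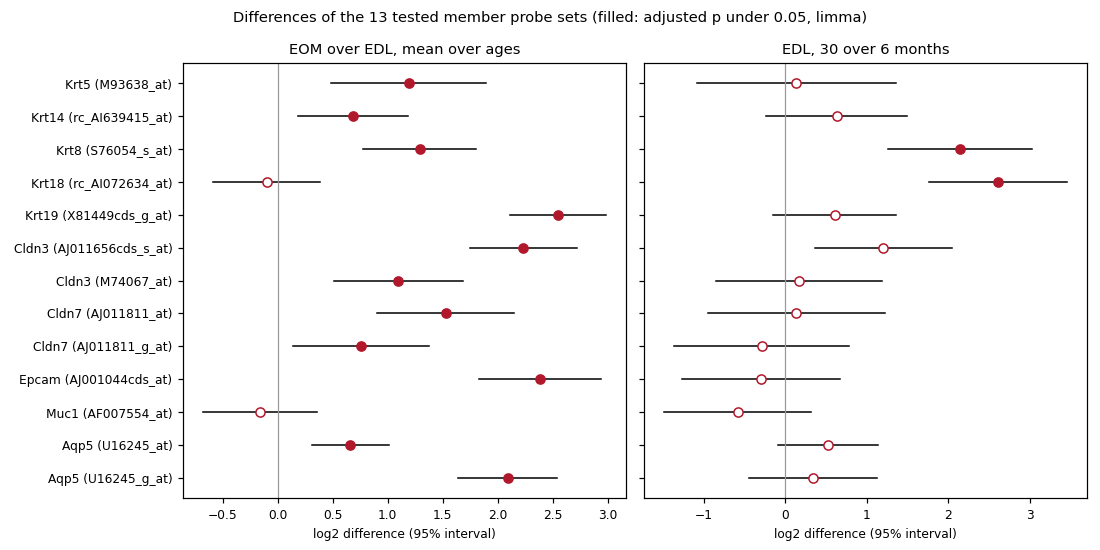
Log2 differences with 95% intervals for the 13 tested probe sets, EOM over EDL as the mean over ages (left) and EDL at 30 over 6 months (right), from the limma fit. Filled points were called at an adjusted p under 0.05. On the left 11 points are filled, all above 0, and on the right 2, Krt8 at 2.14 and Krt18 at 2.61.

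More of these probe sets were called between the muscles at 6 and 30 months than at 18 months. At 6 months 10 of the 13 tested probe sets were called higher in EOM, and 0 lower, where 11.6% and 6.29% of all tested probe sets were. At 18 months 4 were higher and 0 lower, with 14.1% and 9.25% of all tested. At 30 months 6 were higher and 1 lower, with 11.4% and 7.79% of all tested. The median log2 differences were 2.24, 0.43 and 1.27 at 6, 18 and 30 months, beside -0.04, -0.05 and -0.07 over all tested probe sets.

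At 6 months the signals in EOM were at least 7.76-fold higher for Krt19, at least 5.75-fold for Cldn7 (AJ011811_at) and at least 4.72-fold for Krt5, each with all 4 EDL arrays at the floor. Epcam was 7.04-fold higher, Cldn3 (AJ011656cds_s_at) 6.94-fold, Aqp5 (U16245_g_at) 6.32-fold and Krt8 5.35-fold. Without EDL at 6 months replicates 1 and 2, 6 of these 10 calls at 6 months were left. The calls lost were those of Krt5, Krt14, Cldn3 (M74067_at) and Aqp5 (U16245_at). Smaller numbers of arrays enter that fit, with only 2 for EDL at 6 months.

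The probe sets called at 18 months were those of Krt19 (4.27-fold), Cldn3 (4.24-fold, AJ011656cds_s_at), Aqp5 (2.65-fold, U16245_g_at) and Epcam (2.62-fold). The Epcam call, at an adjusted p of 0.0333, was lost in 10 of 18 alternatives, among them leaving out EDL at 18 months replicate 1, 2 or 4 or EOM at 18 months replicate 2, 3 or 4. At 30 months Epcam was 7.72-fold higher in EOM, Krt19 6.02-fold, Aqp5 (U16245_g_at) 4.61-fold and Cldn3 (AJ011656cds_s_at) 3.51-fold. Cldn7 (AJ011811_at) was at least 3.52-fold higher and Krt5 at least 3.36-fold. The other tested probe sets of Aqp5, Cldn3 and Cldn7 were not called at 30 months. The Krt5 call at 30 months (adjusted p = 0.0383) was lost without any 1 of 6 arrays, EDL replicates 1 to 4 and EOM replicates 3 and 4, and the Cldn7 call without EOM replicate 3 or 4. The probe set called lower in EOM at 30 months was that of Krt18.

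Within EOM the epithelial signals were not called different between any ages. At 18 against 6 months 0 of the 13 tested probe sets passed the limma test, where 0.174% of all tested were called in either direction. At an unadjusted p under 0.05 there were 8 of the 13, all lower, and 228 of the 5741. The median log2 difference was -0.92 over the 13 probe sets and 0.05 over all tested. The 18-month mean was the lowest of the 3 ages in 13 of the 15 probe sets, the exceptions being Muc1 and Krt14. These means are of signals before flooring, and some include values at the floor. The share over all probe sets was not counted, so this count is only a description. All 4 EOM arrays at 18 months lay below all 4 at 6 months for both Cldn7 probe sets and for Krt5, a separation found for 2.07% of all tested probe sets.

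Cldn7 (AJ011811_at) came closest to a call. In EOM it read 85, 105.1, 221.5 and 275.4 units at 6 months, 19.2, 14.8, 59.2 and 36.2 at 18 months and 16, 98.1, 156.6 and 299.8 at 30 months. The 18-month arrays were all lower than the 6-month arrays, whereas the 30-month arrays spanned both. The difference of 18 over 6 months was -2.15 ± 0.53 (log2, SE, n = 4 each, limma adjusted p = 0.126), and it was called under other scalings, at an adjusted p of 0.034 with quantile normalisation and 0.0266 with arrays centred on their medians. It was also called with array weights (0.0167) and without EOM at 30 months replicate 1 (0.0121).

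Krt5 in EOM read 146.3, 62.8, 167.8 and 160.8 units at 6 months, 29.1, 43.9, 16.6 and 47.1 at 18 months and 44.8, 61.7, 167.1 and 200 at 30 months. Its 18-month arrays lay below all the 6-month arrays, with a difference of -1.74 ± 0.59 (log2, SE, n = 4 each, limma adjusted p = 0.619). For Epcam the same comparison gave -1.21 ± 0.47 (adjusted p = 0.895) with overlapping arrays, and for Krt8 -1.16 ± 0.43 (adjusted p = 0.769). At 30 against 6 months in EOM, 0 of the 13 were called, where 0.0348% of all tested were. An unadjusted p under 0.05 was reached by 0 of the 13 and by 132 of the 5741 tested. At 30 against 18 months 0 of the 13 were called, where 0.0174% of all tested were. At an unadjusted p under 0.05, 7 of the 13 were higher, beside 136 of the 5741 in either direction. The Cldn7 probe set AJ011811_at was called in that comparison, at 2.27 (adjusted p = 0.0206), only when EOM at 30 months replicate 1 was left out.

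The change from 6 to 18 months did not differ by a call between the muscles. The EOM change minus the EDL change was called for 0 of the 13 probe sets and for 0% of all tested. At an unadjusted p under 0.05, 6 of the 13 were lower, beside 253 of the 5741 tested in either direction. For Cldn7 (AJ011811_at) this interaction was -2.28 ± 0.74 (log2, SE, limma adjusted p = 0.666). In EDL, at 18 against 6 months, 0 of the 13 were called, where 0.279% of all tested were. An unadjusted p under 0.05 was reached by 0 of the 13 and by 440 of the 5741.

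**Figure D3:**
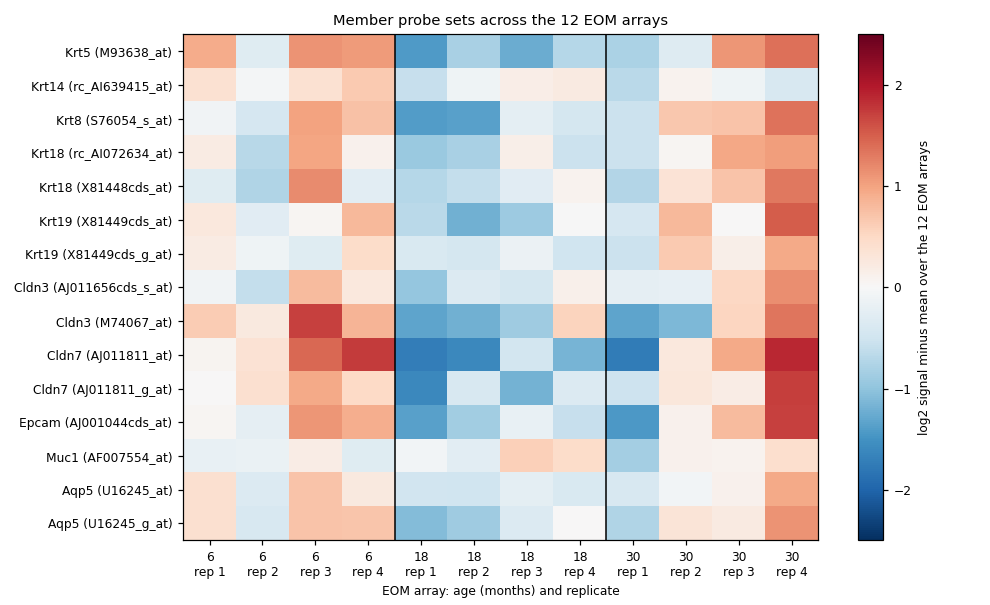
Floored log2 signal of the 15 probe sets on the 12 EOM arrays, each minus its own mean over the 12, with arrays in columns by age in months and replicate. By the signal before flooring, 30 months replicate 4 is the highest for 12 of the 15 probe sets. By the same measure 18 months replicates 1 and 2 and 30 months replicate 1 hold the lowest value for 14 of them. Some of these lowest values lie below the floor, where signals have no order.

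Much of the spread within EOM was between arrays of the same age, as the map of the 12 EOM arrays shows. EOM at 30 months replicate 4 held the highest of the 12 values for 12 of the 15 probe sets, among them Epcam at 744 units, Krt8 at 305.2 and Aqp5 at 368.6 (U16245_at). EOM at 30 months replicate 1, of the same age, held the lowest for 4, among them Epcam at 83.5 and Muc1 at 80. EOM at 18 months replicates 1 and 2 held the lowest for 5 probe sets each, counted before flooring, and some of these values lay below the floor. For Epcam in EOM at 30 months the SD was 282 around a mean of 366 units (n = 4), against an SD of 46.4 around 140.5 at 18 months (n = 4).

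Epcam was chosen, after its values were seen, as the measure against which to set the others over the 12 EOM arrays. With Krt8 the log2 values gave Pearson's r = 0.92 and Spearman's rho = 0.98 (n = 12, permutation p for r = 2e-05, the smallest these permutations can give, adjusted p = 0.0002 over 10 relations). Without EOM at 30 months replicates 1 and 4, the arrays farthest from the median of Epcam, r was 0.95. The Epcam and Krt8 signals were thus ordered almost alike over these arrays. For this and the relations below, the permutations ran over all 12 arrays regardless of age or array number. Their p-values therefore cannot set a relation between genes apart from a difference shared by age or by array.

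The relation with Epcam was r = 0.90 and rho = 0.93 for Aqp5 (U16245_at, n = 12, permutation p = 0.0001 and 2e-05), and r = 0.85 without those 2 arrays. For Krt18 it was r = 0.89 and rho = 0.87 (n = 12, permutation p = 0.00018 and 0.00048), and 0.89 without them. For Krt5 it was r = 0.88 and rho = 0.87 (n = 12, permutation p = 0.00018 and 0.00074), and 0.88 without them. All 3 hold after Benjamini-Hochberg adjustment over the 10 relations, at an adjusted p for r of 0.00045 each. Cldn3 (AJ011656cds_s_at, r = 0.85, rho = 0.80, permutation p = 0.0006 and 0.00332, n = 12) and Cldn7 (AJ011811_g_at, r = 0.84, rho = 0.85, permutation p = 0.00046 and 0.00096, n = 12) followed, at 0.85 and 0.80 without the 2 arrays. Their adjusted p-values for r were 0.001 and 0.00092.

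Krt19 (X81449cds_g_at) had r = 0.74 and rho = 0.78 with Epcam (n = 12, permutation p = 0.00696 and 0.00422, adjusted p for r = 0.00994), which became 0.54 without the 2 arrays and so rested partly on them. Krt14 (r = 0.45, rho = 0.46, permutation p = 0.137 and 0.135, n = 12) and Muc1 (r = 0.45, rho = 0.35, permutation p = 0.136 and 0.264, n = 12) passed no threshold, with an adjusted p for r of 0.137 each. Without the 2 arrays r was 0.70 for Krt14 and 0.0082 for Muc1. After the mean of each age was removed, r with Epcam was 0.93 for Krt8, 0.87 for Krt18, 0.84 for Aqp5, 0.84 for Krt5, 0.82 for Muc1, 0.82 for Cldn3, 0.77 for Cldn7, 0.67 for Krt19 and 0.55 for Krt14.

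The arrays numbered 1 and 2 had lower median signals (104.5 to 112.4 units over the EOM arrays) than those numbered 3 and 4 (117 to 136.8 units). Epcam and the array's median signal gave r = 0.54 and rho = 0.59 (n = 12, permutation p = 0.0713 and 0.0485, adjusted p for r = 0.0891), and r = 0.44 without the 2 arrays. After the mean of each age was removed it was 0.78. Within the 6 dimmer arrays r between Epcam and Krt8 was 0.76 and within the 6 brighter ones 0.995. For Aqp5 these values were 0.73 and 0.95, for Krt18 0.75 and 0.84, for Krt5 0.78 and 0.92, and for Cldn3 0.46 and 0.85. Those of Cldn7 were 0.82 and 0.90 and those of Krt19 0.89 and 0.78. Krt14 gave 0.93 and -0.30 and Muc1 0.62 and -0.39, so that neither held its sign.

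**Figure D4:**
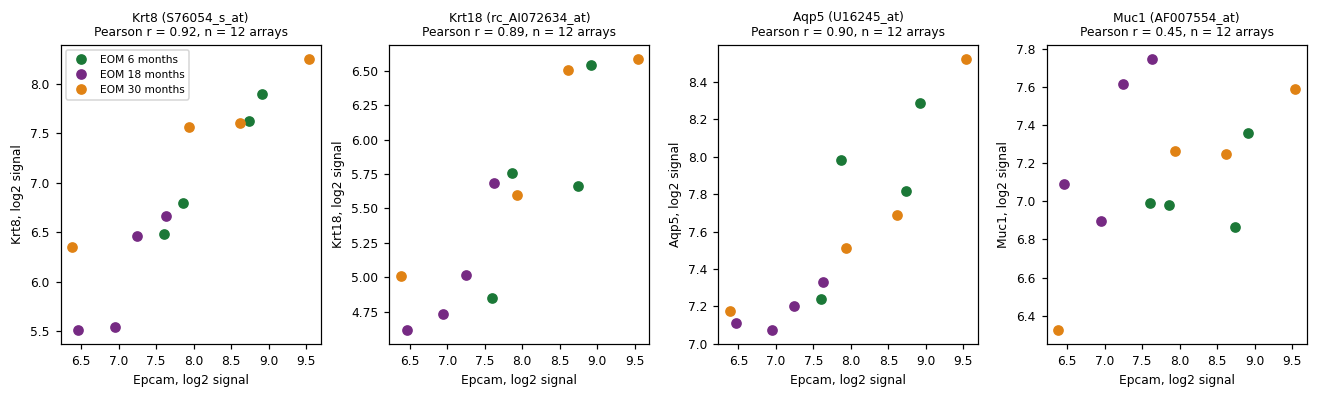
Log2 signals of Krt8, Krt18, Aqp5 (U16245_at) and Muc1 (vertical axes) against the log2 signal of Epcam (horizontal axes) on the 12 EOM arrays, coloured by age. Pearson's r was 0.92, 0.89 and 0.90 for Krt8, Krt18 and Aqp5 and 0.45 for Muc1.

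For each tested probe set the 3 most similar profiles among all tested named probe sets were taken by Pearson's r of log2 values over the 12 EOM arrays, which share their arrays and their scaling, so these r are descriptions. Epcam and the Cldn7 probe set AJ011811_at were each other's closest match at 0.97, followed for Epcam by Plpp2 and Apmap at 0.96 each. For Cldn7 the next were Fasn, fatty acid synthase, at 0.96 and Mgst1, a microsomal glutathione transferase, at 0.95. Mgst1 (0.94), Aqp5 (0.94) and G0s2 (0.93) were closest to Krt8. Cd24 (0.97), Me1 (0.97) and Lss, lanosterol synthase (0.95), were closest to Krt18. Fabp5, Akr7a3 and Acsl5 were closest to Krt5, at 0.96, 0.96 and 0.95.

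Lss and Mgst1 recurred among the closest 3 of 3 probe sets each, and Acsl5, Fasn and Plpp2 of 2 each. Cldn3 was closest to Slc5a6 (0.95, AJ011656cds_s_at) and to St6gal1 (0.94, M74067_at), Aqp5 to Taldo1 (0.95, U16245_at) and Mgst1 (0.94, U16245_g_at), and Cldn7 by AJ011811_g_at to Spint2 (0.93). Krt19 had weaker matches, led by Pde4b at 0.90, and Krt14 the weakest, led by Stmp1 at 0.83. Muc1 shared none of these, and was closest to the lysosomal protease Ctsl at 0.95 and to Ptafr at 0.94.

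The lipid-secreting gland list, which includes Fasn and Me1 among the genes named above, was read on the same arrays. Its summed signal over 11 genes was 21740.3 to 30736.7 units in EOM at 6 months, 15394.5 to 18039 at 18 months and 16765.1 to 33096.8 at 30 months, with 0 genes at the floor on all arrays of a group. The lowest sum of the EOM arrays was that of 18 months replicate 1 and the highest that of 30 months replicate 4. Fasn was lowest in EOM at 18 months replicate 1, at 669.7 units, and highest in EOM at 30 months replicate 4, at 3288.3, where Epcam was also highest. Scd, of the same list, was highest in EOM at 30 months replicate 2, at 2111.5 units, read 1672.3 and 1743.8 on replicates 4 and 1 of that age, and was lowest in EOM at 6 months replicate 2, at 1098.7. Elovl5, also of the list, was highest in EOM at 30 months replicate 4, at 11050.8 units, and lowest in EOM at 18 months replicate 2, at 2814.3. Fasn, Scd and Elovl5 were picked after their values were seen. Klk1, a glandular kallikrein chosen here after its values were seen, had its highest EOM value, 6242.3 units, on 30 months replicate 1, where Epcam was lowest. Spt1, a salivary secretory protein chosen likewise, read 24663.5 and 31848.7 units in EOM at 18 months replicates 3 and 4 but 161.9 and 164.3 in replicates 1 and 2, with Epcam at 198.1, 151.8, 88.3 and 123.6 on those 4 arrays. The part of any glandular tissue in the epithelial signals was not tested.

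In EDL the epithelial genes that moved with age were Krt8 and Krt18, the 2 partners of the simple-epithelium filament. At 30 against 6 months these 2 were called higher and 0 of the 13 lower, where 1.48% of all tested probe sets were called higher and 0.383% lower. At 30 against 18 months the same genes were called higher and 0 lower, with 1.52% and 0.0348% of all tested. These comparisons share the 30-month arrays.

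Krt18, by its tested probe set rc_AI072634_at, read 3.4, 4.9, 35 and 2.8 units in EDL at 6 months, 7, 2.5, 13.4 and 6 at 18 months and 198.2, 255.3, 139.3 and 98.6 at 30 months. All 4 arrays at 30 months exceeded the 8 younger EDL arrays, of which 7 lay at the floor. Over 6 months the difference was 2.61 ± 0.41 (log2, SE, n = 4 each), or 6.09-fold (limma adjusted p = 0.000354). Over 18 months it was at least 5.58-fold (adjusted p = 0.00066). The 30 over 6 months call was kept in all 19 alternatives, at an adjusted p of at most 0.017, and the 30 over 18 months call in all 18. This probe set passed the filter only through EDL at 30 months, the group where it was high, so these calls are descriptions.

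The second Krt18 probe set, X81448cds_at, pointed the same way, at 6.3, 15.6, 33.3 and 5.5 units in EDL at 6 months, 15.6, 5.9, 9.5 and 7.3 at 18 months and 281.2, 220.3, 54.3 and 55.8 at 30 months. All its 8 younger EDL arrays lay at the floor. It failed the filter on low values, and with no filter its difference over 6 months was 2.14 ± 0.48 (log2, SE, n = 4 each, limma adjusted p = 0.0204).

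Krt8 read 10.3, 7.7, 39.5 and 18.7 units in EDL at 6 months, 13.7, 12.8, 9.6 and 58.9 at 18 months and 204.3, 136.5, 87.9 and 88.6 at 30 months. Again all 4 arrays at 30 months lay above the 8 younger ones, of which 6 lay at the floor. Over 6 months the difference was 2.14 ± 0.43 (log2, SE, n = 4 each), or 4.41-fold (limma adjusted p = 0.00548). With the floor at the 10th percentile it was 2.87. Without EDL at 6 months replicates 1 and 2 together it lost its call (adjusted p = 0.106), and without EDL at 30 months replicate 1 it was 1.89 (adjusted p = 0.0385). Over 18 months it was 1.81 ± 0.43, or 3.51-fold (adjusted p = 0.0248), and that call was lost in 7 of 18 alternatives, among them leaving out EDL at 30 months replicate 1 or 2 or EDL at 18 months replicate 1, 2 or 3, with an adjusted p of up to 0.136. Full separation with the older arrays above was found for 2.84% of all tested probe sets at 30 against 6 months and 3.27% at 30 against 18 months.

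The remaining epithelial genes were not called in EDL at 30 months. Krt19 had 98.6, 32.1, 9.8 and 9.5 units in EDL at 30 months and 6.3 to 16.5 units at 6 months, so that its higher mean came from replicates 1 and 2, and its difference was 0.60 ± 0.36 (log2, SE, n = 4 each, limma adjusted p = 0.642). Cldn3 (AJ011656cds_s_at) gave 1.20 ± 0.41 (adjusted p = 0.18), Krt14 0.63 ± 0.42 (adjusted p = 0.694) and Epcam -0.30 ± 0.47 (adjusted p = 0.946). Krt5 and Cldn7 (AJ011811_at) lay at the floor on all 4 EDL arrays at 30 months, as on all 4 at 6 months. Epcam read 7.7 to 51.2 units in EDL at 30 months and 33.7 to 71.1 at 6 months.

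Genes of secretory glands were measured beside Krt8 and Krt18 on these arrays. Klk1 read 2710.4, 6754.7, 2350.8 and 2219.9 units in EDL at 30 months, against 73, 407.2, 144.9 and 24.4 at 6 months, and was the 1 of 12 tested exocrine gland genes called higher (4.92 on the log2 scale, limma adjusted p = 4.73e-05). The summed signal of the 30 exocrine genes was 4296 to 8262.6 units in EDL at 30 months and 1651.4 to 3697.9 at 6 months, with 3 and 9 of the genes at the floor on all 4 arrays. Klk1 is 1 of these 30 genes. It held 6754.7 of the 8262.6 units on 30 months replicate 2 and 2219.9 of the 4296 on replicate 4, but 144.9 of the 3697.9 on 6 months replicate 3. The higher sums at 30 months therefore do not describe the list without Klk1. Spt1 read 16.3 to 43.2 units in EDL at 30 months and 11.9 to 34.4 at 6 months. Of 10 tested lipid gland genes 1, Scd, was called higher (1.96, adjusted p = 0.0051), and of 21 other epithelial structure genes 0. Their part in the Krt8 and Krt18 difference was not tested.

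At 30 months Krt18 was lower in EOM than in EDL. The EOM arrays at 30 months read 32.2, 48.3, 91 and 96.2 units and the EDL arrays 198.2, 255.3, 139.3 and 98.6, with every EOM array below every EDL array, as for 10.5% of all tested probe sets. The difference of EOM over EDL was -1.42 ± 0.41 (log2, SE, n = 4 each, limma adjusted p = 0.0153). The call was lost without EDL replicate 2 (adjusted p = 0.0581), without EOM replicate 1 (0.0737) and with the floor at the 10th percentile (0.0942). The second Krt18 probe set, X81448cds_at, overlapped between the muscles, with 11.8 to 99.9 units in EOM at 30 months and 54.3 to 281.2 in EDL. With no filter its difference was -1.13 ± 0.48 (log2, SE, n = 4 each, limma adjusted p = 0.152). Krt8 at 30 months differed by 0.52 ± 0.43 (adjusted p = 0.454), with 81.6 to 305.2 units in EOM and 87.9 to 204.3 in EDL.

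The age change of Krt18 from 6 to 30 months was then compared between the muscles. The EOM change minus the EDL change was -2.38 ± 0.58 (log2, SE, limma adjusted p = 0.115), so that it was not called, and 0 of the 13 probe sets were, where 0.192% of all tested were called in either direction. It was called with quantile normalisation (adjusted p = 0.0455) and with log2 of the signal plus 16 units in place of the floor (adjusted p = 0.0386). The second Krt18 probe set gave -1.69 ± 0.68 (log2, SE) for it with no filter and was not called. Krt18 within EOM gave 0.22 ± 0.41 over the same ages (adjusted p = 1.00).

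Other genes with epithelial roles were read from lists beside these 10. Of 75 further epithelial structure and junction genes 30 were measured and 21 tested, and as the mean over ages 8 were higher and 2 lower in EOM than in EDL, with a median log2 difference of 0.17. The highest were Itgb4, the hemidesmosome integrin (2.79), Ezr, which links the apical membrane to actin (2.61), and Spint2, a protease inhibitor (2.14). The lower ones were Cd24 (-0.56) and Jup, plakoglobin (-0.53). Cd24 was nevertheless the closest profile to Krt18 within EOM.

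Of 21 tested aquaporin and ion transport genes 8 were higher and 3 lower in EOM, with a median of -0.04. Aqp3, a glycerol and water channel of basolateral membranes, differed by 1.55, Atp1b1, a sodium pump subunit, by 1.34 and Kcnk1 by 0.99, against -1.34 for Slc4a4, -0.53 for Scnn1g and -0.53 for Slc12a2. Of 12 tested exocrine gland genes 7 were higher and 0 lower, with a median of 0.70, led by Spt1 (5.17), Klk1 (2.98) and Pip (1.86). Of 10 tested lipid gland genes 7 were higher and 1 lower, with a median of 1.33, led by Elovl5 (3.76), Fasn (3.14) and Acly (3.13), with Me1 at -0.51. For these lists and those that follow, the shares of all tested probe sets are the 22.3% higher and 20% lower given above.

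Markers of other tissue that a dissection could carry were mixed. Of 8 tested retina and lens genes 0 were higher and 3 lower in EOM (Crygd -0.64, Rom1 -0.57 and Cryab -0.33). Of 6 tested myoepithelial and smooth muscle genes 5 were higher and 1 lower, led by Cnn1 (1.68), Myh11 (1.46) and Acta2 (1.44), with Des at -0.81. Ace (1.30) was the 1 of 6 endothelial genes called, Cdh2 (1.75) the 1 of 2 tested mesothelial genes, and 0 of 2 tested hair and skin surface genes were called. At 18 against 6 months in EOM, 0 genes were called in all 10 lists. The part of any of these tissues in the difference of the epithelial genes between EOM and EDL was not tested.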

How the data were processed

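Each probe set has 1 deposited linear intensity per array. The authors made these with MAS5, version 5 of the Affymetrix Microarray Suite, per the submitters' processing notes and the design text. Cy3 and Cy5 stand in the labels, but the design text gives biotin and streptavidin, so the arrays were treated as 1-colour. Genes were named from the platform annotation. Values were floored at each array's 25th percentile and log2 was taken. Group means of the 6 groups were fitted for 5741 probe sets on all 24 arrays (limma 3.58.1 in R 4.3.3, eBayes with trend, 18 residual degrees of freedom), since the groups share 1 platform and so 1 estimate of the spread. P-values are two-sided and adjusted by Benjamini-Hochberg over all 5741. They measure the spread between pools in the floored values. Where all arrays of a group lay at the floor, that group adds only the spread of the array floors. The fit was tested on simulated data. A fold change understates differences near the floor, and is given as a lower bound where all arrays of the dimmer group lay there. Permutation tests of correlations (two-sided) used 100000 permutations in SciPy 1.17.1. Every probe set of the 10 genes is named; from other lists, the up to 3 largest called differences in each direction of the mean over ages. The 10 genes and the lists were chosen with earlier results of these data known. Alternatives were quantile scaling, median centring, other floors and filters, log2 of the signal plus 16, array weights, a replicate block, only the groups compared, and each array left out. Leaving out EDL at 6 months replicates 1 and 2 together was chosen after seeing the data. The number of arrays limits the precision, and neither detection calls nor scanner files were used.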

Additional observations from a re-analysis of the deposited data

Results flagged for a closer look

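In 7 of the 90 groups of 4 arrays (15 probe sets in 6 groups), 1 array lay far from the other 3, by more than Dixon's critical share of the group's range, which chance gives in about 1 group of 20. Krt5 read 290.8 units in EDL at 18 months replicate 1, with 3.1 to 20.2 on the other 3 arrays. Krt19 (X81449cds_at) read 127.8 units in EDL at 30 months replicate 1, with 10.6 to 14.1 on the others, and that array also had the lowest correlation with its group. Krt8 read 58.9 units in EDL at 18 months replicate 4, with 9.6 to 13.7 on the others. Epcam read 71.1 units in EDL at 6 months replicate 4, with 33.7 to 39.6 on the others. EDL at 6 months replicate 3, whose array floor of 34.5 units was the highest of all, stood out for Krt18 (rc_AI072634_at, 35 units) and for Cldn3 (M74067_at, 23.1 units, still below its floor). Cldn3 (M74067_at) read 89.1 units in EOM at 18 months replicate 4, with 14.7 to 24.2 on the others.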

How the results depend on the processing

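Of 36 individual calls on the 10 genes 24 were kept in every alternative, and the causes of the losses were not tested. At 18 over 6 months in EOM the count was 1 (Cldn7) in place of 0 under quantile scaling, median centring, array weights and the replicate block. For the change from 6 to 30 months in EOM minus that in EDL it was 1 (Krt18) in place of 0 under quantile scaling, log2 of the signal plus 16 and the replicate block. At 30 over 18 months in EDL it was 1 in place of 2 under array weights and with only the groups compared, and 1 to 2 with each array left out. At 30 over 18 months in EOM it was 0 to 1 with each array left out. Without EDL at 6 months replicates 1 and 2 it was 6 in place of 10 for EOM over EDL at 6 months and 1 in place of 2 for EDL at 30 over 6 months. Krt18 as the mean over ages, -0.10 and not called, became 0.60 with the floor at the 10th percentile, 0.37 with log2 of the signal plus 16 and lay between -0.19 and 0.000306 with each array left out, the highest without EOM at 30 months replicate 1. Same-numbered arrays of different groups correlated at 0.06 to 0.39 after group means were removed, over 0.1 in 10 of 12 pairs but not in the other 2, and 8 of 12 EOM arrays correlated best with the EDL array of their own number, a hint from the data and not from the design. The labels do not say what the number marks, and with 2 pairs at or under 0.1 it was not taken as pairing. Median centring moved the median of all probe sets for EDL at 30 over 6 months to -0.12, in place of 0.03, far less than the Krt8 and Krt18 differences. Fitting only the groups compared gave no separate value for the mean over ages. Signals at the floor, as for most EDL arrays of Krt5, Krt19 and Cldn7, have no order among themselves.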
